A study of Mus musculus with 11 samples.

Results

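Translation initiation factors outside the cap-binding eIF4 group were followed as 32 genes chosen by name: the genes of eIF1, eIF1A, eIF2, eIF2B, eIF2A, eIF2D, eIF3, eIF5, eIF5A, eIF5B and eIF6. All 32 had a row in the soleus table, which holds 13121 genes, and in the quadriceps table, which holds 12366, and all 32 passed the filter on low values in both. RNA had been sequenced from hindlimb muscles of mice 2.5 months old. The Myc-labelled groups were 4 soleus and 2 quadriceps libraries labelled as Myc overexpression, from mice given doxycycline overnight to raise Myc and sampled 12 hours after its removal. The control groups were 3 soleus and 2 quadriceps libraries from age-matched mice. The labels give neither the genotype of the controls nor whether they received doxycycline, and name neither the transgene and its promoter nor the strain or sex. They also do not say whether libraries came from separate animals, so p-values measure the spread between these libraries.

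Initiation begins when eIF2, carrying GTP and the initiator methionyl-tRNA, joins the small ribosomal subunit together with eIF1, eIF1A, eIF3 and eIF5, and this complex scans the mRNA for a start codon. Recognition of the codon triggers hydrolysis of the GTP on eIF2, and eIF2B then exchanges the GDP for GTP, the step that stress kinases block by phosphorylating the alpha subunit of eIF2. eIF5B joins the large subunit, eIF6 keeps free large subunits apart from small ones, and eIF5A acts mainly in elongation and termination despite its name. In muscle, the rate of initiation is known to respond to feeding, insulin and loading.

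Levels are given as the authors' normalised values, in which every library's estimated reads were scaled by 1 factor of its own. The 7 soleus libraries held between 11.1 M and 14.9 M estimated reads, and the 4 quadriceps libraries between 14.2 M and 18.4 M. The Myc row does not separate the groups: it held 26.3, 31.0, 28.8 and 27.7 in the Myc-labelled soleus libraries, against 30.04, 54.3 and 28.2 in the controls, and 86.4 and 33.6 in the Myc-labelled quadriceps libraries, against 114 and 55.7 in the controls. Every direction is therefore drawn from the labels. Slow fibre markers, 8 genes headed by Myh7, summed to between 498160 and 637130 in the 4 Myc-labelled soleus libraries and to between 528700 and 615470 in the 3 controls. In quadriceps they summed to 1795 and 2844 in the Myc-labelled libraries, against 25843 and 188530 in the controls, so the control quadriceps libraries hold slow fibre RNA that the Myc-labelled ones lack. Fast fibre markers, 9 genes, summed to 425530, 569200, 682400 and 468190 in the Myc-labelled soleus libraries, against 649440, 682240 and 650170 in the controls, and 1 of the 9 passed, lower. Myh4, the fast IIb myosin, held 318, 589, 17469 and 244 in the Myc-labelled soleus libraries, against 664, 26824 and 10303 in the controls, with control replicate 2 the highest of the 7; the part of fibre type in the results was not tested. Among the Myc-labelled soleus libraries, replicates 3 and 4 stood apart in tendon and fibroblast markers. The 8 tendon genes summed to 7289, 6467, 2156 and 3462 in Myc-labelled replicates 1, 2, 3 and 4, against a range of 7415 to 9024 in the controls, and the 6 fibroblast genes to 16833, 17134, 5445 and 8104, against a range of 13381 to 20276. These markers varied in quadriceps too. The tendon genes summed to 273 and 3493 in Myc-labelled quadriceps replicates 1 and 2, against 3902 and 1372 in the controls. The fibroblast genes summed to 9233 and 18085 there, against 12778 and 15644. In soleus, 5 erythroid genes summed to 6002, 7523, 4305 and 3277 in Myc-labelled replicates 1 to 4, against 7444 to 7704 in controls. For 5 endothelial genes the sums were 6221, 6036, 5505 and 5172, against 6092 to 7009. For 7 macrophage genes they were 814, 1018, 507 and 751, against 808 to 1176. Adipocyte, Schwann and satellite cell markers did not set replicates 3 and 4 apart. In bulk muscle, fewer cells of a type and less RNA per cell cannot be told apart. The Y-linked genes Eif2s3y, Ddx3y, Kdm5d and Uty had reads in all 11 libraries and Xist had no row in either table.

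In soleus, 18 of the 32 genes rose in the Myc-labelled libraries and 0 fell (limma on log2(value + 1), Benjamini-Hochberg adjusted p under 0.05). The largest changes were those of Eif1a, Eif3d, Eif2b3, Eif2s1, Eif5a and Eif3b, each between 1.81-fold and 2.59-fold higher. Of all 12745 genes tested in soleus, 7.06% rose and 2.23% fell, 9.29% in either direction. At an unadjusted p under 0.05, 22 of the 32 were higher and 0 lower, against 12.9% and 8.77% of all genes (21.7% in either direction). The log2 change was above 0 for 27 of the 32, against 45.6% of all genes. The median log2 change of the 32 genes was 0.43, against -0.03 over all genes tested. In 21 of the 32 every Myc-labelled library lay above every control, as it did for 12.7% of all genes tested, and in 0 did every Myc-labelled library lie below, as it did for 8.35% of all genes. The 32 values together summed to 59910, 59018, 64483 and 64227 in the Myc-labelled libraries, against 48027, 46324 and 48136 in the controls, with no overlap. Without Myc-labelled replicates 3 and 4, the pair low in tendon and fibroblast markers, 11 of the 32 rose, where 4.94% of all genes passed in either direction, and without control replicate 2, the library highest in Myh4, the count was 13, where 6.09% of all genes passed.

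**Figure D1:**
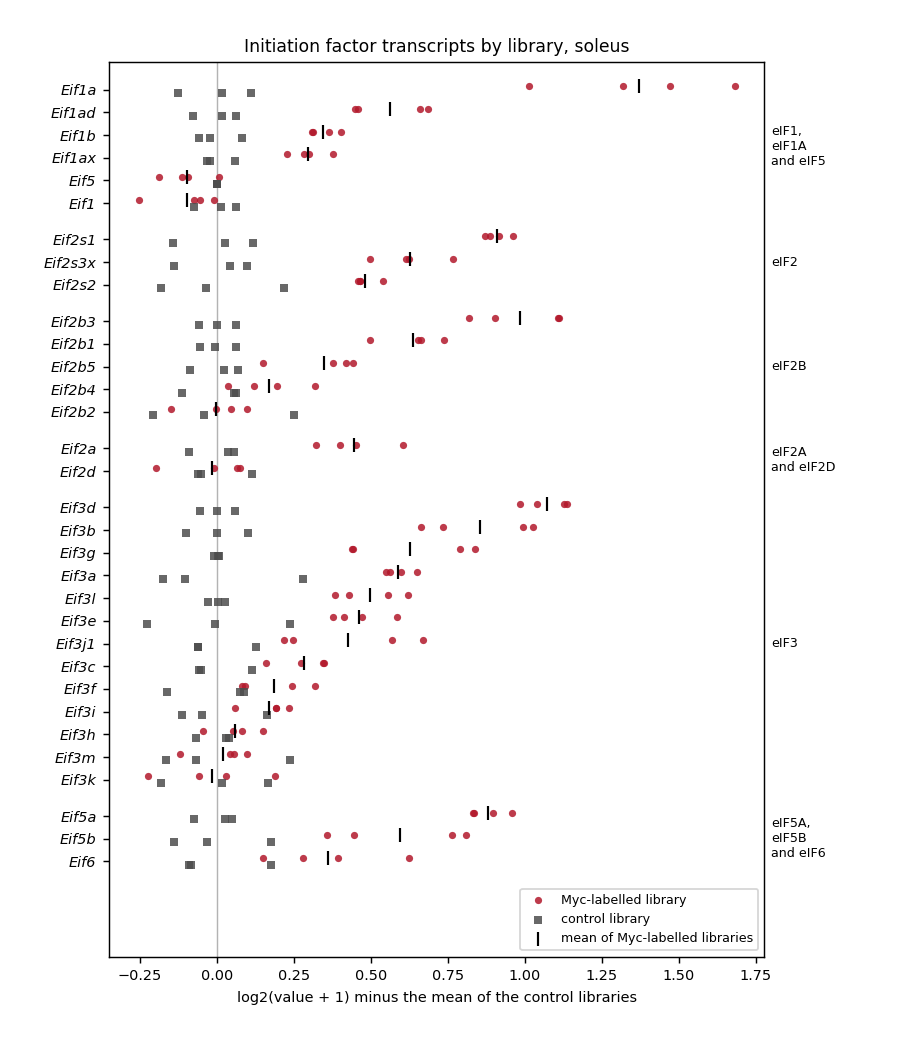
Each row is a gene, grouped by factor and ordered by its change, and the x axis gives log2(value + 1) minus the mean of the control libraries in soleus. Red circles are the 4 Myc-labelled libraries, grey squares the 3 control libraries and the black tick the Myc-labelled mean. Eif1a lies farthest to the right with a mean of 1.37, while Eif1, Eif5, Eif2b2, Eif2d, Eif3k and Eif3m stay around 0.

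All 3 genes of eIF2, the carrier of the initiator tRNA, rose in soleus. Eif2s1, the alpha subunit whose phosphorylation slows initiation, held 946, 957, 1006 and 976 in the Myc-labelled libraries, against 526, 469 and 561 in the controls. The 4 Myc-labelled values lie close together and all exceed the highest control, a log2 change of 0.91 (SE 0.11, limma adjusted p = 3.1e-05). Eif2s3x, the X-linked gene of the GTP-binding gamma subunit, held 2107, 1929, 2089 and 2326, against 1408, 1459.9 and 1241 in the controls, again without overlap (log2 change 0.63, SE 0.10, limma adjusted p = 0.00058). Its Y-linked copy Eif2s3y held 793 ± 83.2 in Myc-labelled libraries (SD, n = 4) and 727 ± 196 in controls (SD, n = 3), a log2 change of 0.15 (limma adjusted p = 0.62). Eif2s2, the beta subunit, changed least of the 3, with 2191, 2083, 2070.2 and 2082 against 1472, 1329.9 and 1754 in the controls (log2 change 0.48, SE 0.10). Without control replicate 2 its log2 change was 0.39 and did not pass (limma adjusted p = 0.056). In the GENCODE M21 transcripts, 36.2% of the 50-base stretches of the Eif2s3x transcript also occur in another gene, as do 27.8% of those of Eif2s2, so the reads given to these genes are less certain than those of Eif2s1, where the share is 8.49%.

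The 5 subunits of eIF2B, the exchange factor that recharges eIF2 with GTP, had log2 changes between 0.00 and 0.99 in soleus, and 3 of them rose. Eif2b3, the gamma subunit of the catalytic pair, held 500.4, 409, 434 and 502 in the Myc-labelled soleus libraries, against 232, 222 and 242 in the controls. The groups are far apart, a 1.98-fold difference (log2 change 0.99, SE 0.14, limma adjusted p = 0.00016). Eif2b5, the epsilon subunit with the exchange activity, held 1073, 1256, 1314 and 1291.5 against 1013, 909.9 and 981 in the controls, with Myc-labelled replicate 1 close to the controls (log2 change 0.35, SE 0.10, limma adjusted p = 0.048). It did not pass under 11 of the 18 alternative settings, with log2 changes of 0.26 to 0.38 and limma adjusted p up to 0.27. Of the regulatory subunits, Eif2b1 (alpha) rose, with 788, 876, 883 and 929 against 555, 582 and 536 in the controls (log2 change 0.64, SE 0.11). Eif2b4 (delta) averaged 884 ± 73.6 in Myc-labelled libraries (SD, n = 4) and 787 ± 52.9 in controls (SD, n = 3), and the groups overlap (log2 change 0.17, limma adjusted p = 0.40). Eif2b2 (beta) held 320.3, 289.6, 332 and 343 against 312, 382 and 278 in the controls, and its log2 change of 0.00 had a 95% interval of -0.32 to 0.31.

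Among the factors that guide scanning and start codon choice, Eif1a stood out in soleus. Eif1a, an autosomal gene of eIF1A, held 394, 627, 542 and 487 in the Myc-labelled libraries, against 210.3, 178 and 197 in the controls. The lowest Myc-labelled library is well above the highest control, and the mean change was 2.59-fold (log2 change 1.37, SE 0.16, limma adjusted p = 3.2e-05). The X-linked gene of the same factor, Eif1ax, held 1444, 1374, 1427 and 1525 against 1155, 1147 and 1223 in the controls; its groups do not overlap either, and its log2 change of 0.30 did not pass (limma adjusted p = 0.060). Of the reads assigned to the 2 genes together, Eif1a took 21.5%, 31.3%, 27.5% and 24.2% in the Myc-labelled libraries, against 15.4%, 13.5% and 13.9% in the controls. The share is thus higher in each Myc-labelled soleus library than in any soleus control. In quadriceps the share was 9.97% and 11.7% in the Myc-labelled libraries, against 7.41% and 10.4% in the controls, so the groups overlap there. Eif1ad, which encodes a nuclear protein with an eIF1A-like domain, held 612, 617, 722 and 709 against 425, 469 and 454 in the controls (log2 change 0.56, SE 0.12, limma adjusted p = 0.0051), and without Myc-labelled replicates 3 and 4 its log2 change was 0.45 and did not pass (limma adjusted p = 0.086).

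eIF1 and eIF5 are the partners of eIF1A in start codon selection, and their main genes did not pass. Eif1 held 7822, 6609.6, 7591 and 7482 in the Myc-labelled soleus libraries, against 7946, 7489 and 8228 in the controls, with overlapping groups and a log2 change of -0.10 (95% interval -0.30 to 0.10, limma adjusted p = 0.58). Eif5, the activator of GTP hydrolysis on eIF2, ranged from 3045 to 3487 in Myc-labelled libraries and lay at 3473, 3469.8 and 3475 in the controls (log2 change -0.10, limma adjusted p = 0.56). Eif1b, a close relative of Eif1, lay higher in every Myc-labelled library, 543 to 580.2 against 422 to 465 in the controls, and did not pass (log2 change 0.35, limma adjusted p = 0.074). Under library-size scaling Eif1b and Eif1ax passed (limma adjusted p = 0.047 and 0.024). For Eif1, 31.6% of the 50-base stretches occur in other genes, among them 15.9% in Emd, which has rows of its own in both tables, so its reads are less certain. Eif1b and Eif1ax share none.

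eIF2A and eIF2D can each deliver tRNA to the small subunit without eIF2 on some mRNAs. Eif2a held 1109, 1150.2, 1050.1 and 1278 in the Myc-labelled libraries, against 874, 789.6 and 860.5 in the controls, a rise without overlap (log2 change 0.44, SE 0.10, limma adjusted p = 0.011). Its log2 change was 0.40 without control replicate 2 and 0.43 without Myc-labelled replicates 3 and 4, and it did not pass in either (limma adjusted p = 0.069 and 0.057). Eif2d held 384, 337, 406 and 404 against 370.2, 372 and 418 in the controls (log2 change -0.02, 95% interval -0.30 to 0.26). The difference between these genes was not tested, and the interval of Eif2a, 0.22 to 0.66, overlaps that of Eif2d.

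eIF3 is the largest initiation factor, a scaffold on the small subunit that links it to the mRNA and to eIF4G. Of its 13 genes measured here, 7 rose in soleus and 6 did not pass. Eif3d, a peripheral subunit with cap-binding activity described in human cells, led with 1752, 1687, 1863 and 1874 in the Myc-labelled libraries, against 887, 852 and 819 in the controls. Neither group has much spread, and the mean change was 2.10-fold (log2 change 1.07, SE 0.09, limma adjusted p = 1.7e-06). The subunits Eif3b, Eif3g and Eif3i form a module that bridges to the entry side of the mRNA channel, and Eif3b and Eif3g passed. Eif3b held 2957, 2815, 3622 and 3541 against 1779.5, 1907 and 1660 in the controls (log2 change 0.85, SE 0.11, limma adjusted p = 6.1e-05). Eif3g held 745, 747, 949 and 982 against 551, 551 and 546 in the controls (log2 change 0.63, SE 0.12). Eif3i averaged 1035 ± 54.3 in Myc-labelled libraries (SD, n = 4) and 923 ± 94.3 in controls (SD, n = 3), which overlap (log2 change 0.17, limma adjusted p = 0.38). Within the Myc-labelled libraries, Eif3b and Eif3g were higher in replicates 3 and 4 than in 1 and 2, the pair that is low in tendon and fibroblast markers; the part of those markers in these values was not tested. Without that pair Eif3b passed, and Eif3g, with a log2 change of 0.44, did not (limma adjusted p = 0.069).

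The other large group of eIF3 subunits is the ring of 8 built on Eif3a and Eif3c, and 3 of its genes rose. Eif3a held 3774, 3521, 3644 and 3556 in the Myc-labelled soleus libraries, against 2922, 2242 and 2133 in the controls (log2 change 0.59, SE 0.11, limma adjusted p = 0.0018). Eif3l held 1573, 1525, 1797 and 1719 against 1173, 1190.2 and 1146 in the controls (log2 change 0.50, SE 0.10, limma adjusted p = 0.0029). Eif3e held 2039, 2091, 2178.5 and 2359 against 1564, 1342 and 1854 in the controls (log2 change 0.46, SE 0.11, limma adjusted p = 0.014). Each of these rises is free of overlap, but Eif3e did not pass in some subsets: its log2 change was 0.35 without control replicate 2 (limma adjusted p = 0.11), 0.42 without Myc-labelled replicate 4 (0.058) and 0.39 without replicates 3 and 4 together (0.13). Eif3c lay above the controls in every Myc-labelled library, 3185 to 3633 against 2741 to 3087.5 in the controls, and passed under library-size scaling (limma adjusted p = 0.019) but not under the deposited one (0.074). Eif3f, Eif3h, Eif3k and Eif3m, the remaining 4, had log2 changes between -0.02 and 0.18 and overlapping groups. Eif3f ran from 2568 to 3024 in Myc-labelled libraries and from 2171 to 2577 in controls, and Eif3h from 1835 to 2102.5 in Myc-labelled libraries and from 1807 to 1946.5 in controls. Eif3m ran from 1052 to 1226 in Myc-labelled libraries and from 1020.5 to 1349 in controls. Eif3k held 790.4, 705, 841 and 937 against 725, 832 and 924 in the controls. Eif3j1, which codes for the loosely bound subunit eIF3j, held 1471, 1500.5, 1875 and 2012 against 1382, 1211 and 1212 in the controls (log2 change 0.42, SE 0.12, limma adjusted p = 0.035), and it did not pass under 8 alternative settings, with log2 changes of 0.23 to 0.42 and limma adjusted p up to 0.30. Its near copy Eif3j2, with which Eif3j1 shares 39.4% of its 50-base stretches, rose by 0.39 (SE 0.11, limma adjusted p = 0.031). The split of reads between these 2 genes is uncertain. The share of 50-base stretches that occur in other genes was 37.3% for Eif3m, 26.2% for Eif3h and 22.03% for Eif3e. The reads given to Eif3m, Eif3h and Eif3e are therefore less certain too.

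Set side by side per length of transcript, the eIF3 subunits lay closer together in Myc-labelled libraries. Of the 12 subunits without Eif3j1, the highest per kilobase over the lowest was 2.09, 2.24, 2.28 and 2.26 in the Myc-labelled soleus libraries, against 3.22, 3.19 and 3.59 in the controls. The SD of their log2 values per kilobase was 0.31, 0.36, 0.33 and 0.35, against 0.49, 0.50 and 0.61 in the controls. In quadriceps that SD was 0.45 and 0.41 in the Myc-labelled libraries, against 0.63 and 0.58 in the controls. In soleus controls Eif3h averaged 1464 per kilobase and Eif3d 449, while in Myc-labelled libraries they averaged 1526 and 945. The order of the controls put Eif3h, Eif3e, Eif3f, Eif3k and Eif3m first and Eif3l, Eif3g, Eif3a and Eif3d last. Length was that of the longest coding transcript of each gene in GENCODE M21, and the transcripts in use in muscle may be shorter. The spread was also lower in the 7 subunits that share no 50-base stretch with another gene, with an SD of 0.22, 0.23, 0.26 and 0.28 in the Myc-labelled soleus libraries, against 0.39, 0.49 and 0.49 in the controls. The SD across subunits was also lower in every Myc-labelled soleus library for eIF2, 0.74 to 0.83 against 0.98 to 1.03 in the controls, and for eIF2B, 0.76 to 0.97 against 1.06 to 1.12. These SDs were calculated after the single changes had been seen, and carry no test.

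**Figure D2:**
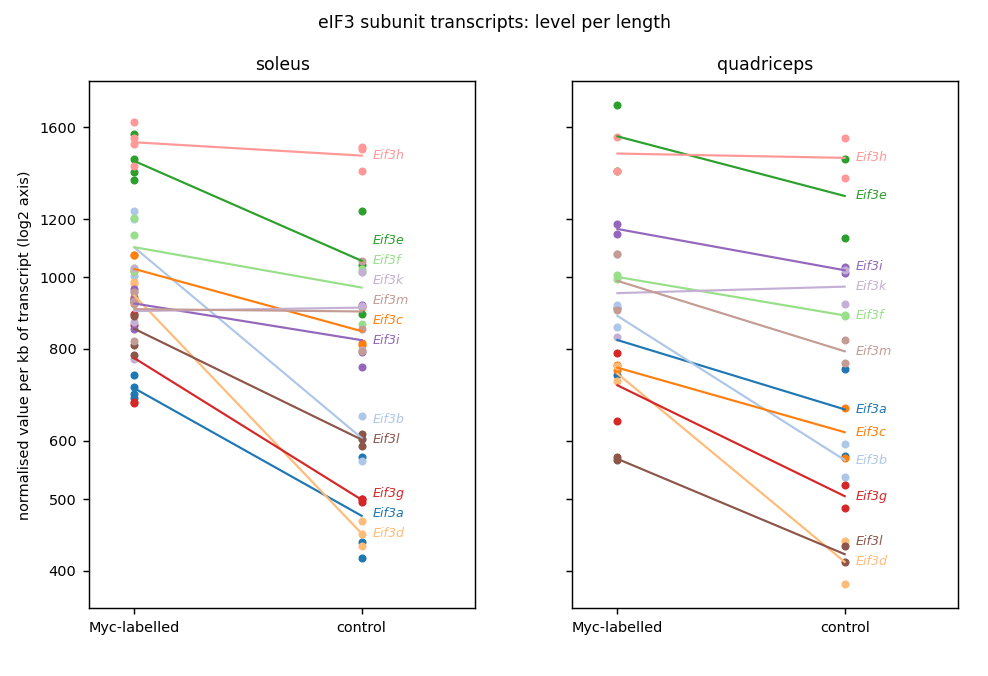
Normalised value per kilobase of transcript on a log2 axis for 12 eIF3 subunits, in Myc-labelled libraries on the left and control libraries on the right of each panel; points are libraries and lines join the group means. In soleus the controls run from 449 (Eif3d) to 1464 (Eif3h), and the Myc-labelled means lie closer together.

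Of eIF5A, eIF5B and eIF6, Eif5a and Eif5b rose in soleus. Eif5a, the elongation and termination factor and the only known protein with the modified lysine hypusine, held 7569.6, 7906, 8259 and 7555 in the Myc-labelled libraries, against 4034, 4392 and 4326 in the controls. The groups are widely separated, and the change was 1.84-fold (log2 change 0.88, SE 0.09, limma adjusted p = 5.4e-06). Per kilobase of transcript Eif5a ranked second of the 32 genes behind Eif1 in both soleus groups, at 5444 in Myc-labelled libraries and 2958 in controls, with Eif1 at 5579.5 and 5966. Eif5b, the GTPase of subunit joining, held 2670.1, 2513, 3330 and 3434 against 2214, 1781 and 1918 in the controls (log2 change 0.59, SE 0.12, limma adjusted p = 0.0044), with replicates 3 and 4 again above 1 and 2; without them its log2 change was 0.40 and did not pass (limma adjusted p = 0.071). Eif6, the factor bound to free large subunits, held 504, 460.4, 639 and 545 against 391, 469 and 389.8 in the controls. The groups overlap and it did not pass (log2 change 0.36, limma adjusted p = 0.13).

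The promoter windows of these genes were read for the E-box CACGTG, the hexamer bound by Myc with its partner Max, because many of the genes moved in the same direction. RefSeq windows of 300 bases (250 before to 50 after a start, GRCm38.p6) were matched for 26 of the 32 genes by symbol, and the hexamer reads the same on both strands. It was present in 5 of the 26, or 19.2%, against 11.9% of 10412 genes of the soleus table with a window and 8.09% of all 27025 genes with one. A gene counted if any of its windows held the hexamer. Eif5a had 6 windows, 3 of them with it, so it had more chances to count than a gene with 1 window. Among the 15 genes with a window that rose in soleus 2 held it, and among the 11 that did not pass 3 held it. No window was matched for Eif1a, Eif2b3, Eif3e, Eif3h, Eif3i and Eif6. Eif1a and Eif2b3, among the largest changes in soleus (log2 changes 1.37 and 0.99), were therefore not read. Shown are the hexamers, in capitals with their surroundings and 5′ to 3′, of the 2 genes that rose and the 3 that did not pass, to let them be compared. Those of Eif5a (chr11:69921415-69921500), Eif3a (chr19:60790666-60790695) and Eif3k (chr7:28981889-28981972) are on the minus strand, and those of Eif3f (chr7:108934307-108934392) and Eif1b (chr9:120492542-120492605) on the plus strand.
Eif5a: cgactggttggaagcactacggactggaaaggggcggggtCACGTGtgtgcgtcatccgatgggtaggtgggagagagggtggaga
Eif3a: gcggcgctgccgccgcgagggaatCACGTG
Eif3k: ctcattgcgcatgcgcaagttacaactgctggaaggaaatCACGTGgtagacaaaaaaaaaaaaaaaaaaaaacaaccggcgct
Eif3f: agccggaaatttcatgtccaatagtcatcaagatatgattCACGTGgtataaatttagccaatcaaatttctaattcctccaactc
Eif1b: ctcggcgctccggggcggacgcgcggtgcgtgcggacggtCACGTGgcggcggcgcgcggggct
The Eif5a hexamer begins 74 or 185 bases before a start, depending on which of its annotated starts is taken, and a further window of Eif5a holds another one. In Eif3a the hexamer begins 23 bases past the start. The letters are a description of these windows and say nothing about binding of Myc there.

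Other genes of the pathway were taken from lists that hold no member of the 32. Of these 34 genes 13 rose in soleus and 0 fell, where 7.06% of all genes tested rose and 2.23% fell. Among the 13 was Eif3j2, the near copy of the member Eif3j1, and the split of reads between them is uncertain. With these 2 summed, 12 of 33 rose. Of 6 genes for ribosome recycling, re-initiation and start-site choice 5 rose: Abce1, which splits ribosomes after termination (log2 change 1.06, SE 0.10), Mcts1 (0.67) and Denr (0.46), which form a re-initiation complex, and Bzw2 (0.46) and Bzw1 (0.40), relatives of eIF5 known from human cells to oppose it. Of 8 genes of the eIF2 alpha kinases, their phosphatase subunits and regulators 1 rose, Gcn1, the partner of the amino acid sensor kinase (1669.7 ± 218 in Myc-labelled libraries, SD, n = 4, and 956 ± 61.9 in controls, SD, n = 3). The kinase genes Eif2ak1, Eif2ak2, Eif2ak3 and Eif2ak4 had log2 changes between -0.04 and 0.25, and the stress-induced phosphatase subunit Ppp1r15a one of 0.13, none of which passed. Of the eIF5A group, Dohh, the second enzyme of hypusine synthesis, rose by 0.43 (SE 0.12), while Dhps, the first enzyme, had a log2 change of 0.09 (limma adjusted p = 0.77). Of 13 eIF4 genes 5 rose, Eif4a1, Eif4b, Eif4ebp1, Eif4a3 and Eif4a2, by 1.30 to 0.42, and of the mitochondrial factors Mtif2 and Mtif3 neither passed. The count of 13 was 8 without control replicate 2, where 6.09% of all genes passed in either direction. It was 8 without Myc-labelled replicates 3 and 4, where 4.94% did. In quadriceps 0 of the 34 were called, where 0.00815% of all genes were. There 3 of the 34 had an unadjusted p under 0.05 by limma, against 6.21% of all genes, and the median log2 change of the 34 was 0.14.

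In quadriceps 0 of the 32 genes were called in the limma fit of that muscle (9 at an unadjusted p under 0.05, all higher; 0 called by limma-voom, 10 at an unadjusted p under 0.05), where 0.00815% of all genes tested were called. At an unadjusted p under 0.05, 3.97% of all genes were higher and 6.21% differed in either direction. The count of 9 was 16 under library-size scaling (6.89% of all genes), 4 without Myc-labelled replicate 1 (5.61%), 9 without Myc-labelled replicate 2 (11.6%), 5 without control replicate 1 (5.34%) and 4 without control replicate 2 (3.73%). Both Myc-labelled libraries lay above both controls for 21 of the 32 genes, against 18.3% of all genes tested, and both lay below for 0, against 16.9%. The median log2 change was 0.30, against -0.03 over all genes, and ran from 0.19 to 0.42 when single libraries were left out. The log2 change was above 0 for 29 of the 32, against 45.8% of all genes. It was also above 0 for all 18 that rose in soleus, but the share among all genes that rose in soleus is not given here. The quadriceps controls hold more slow fibre RNA than the Myc-labelled libraries, by the sums given above, and its part in these values was not tested.

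**Figure D3:**
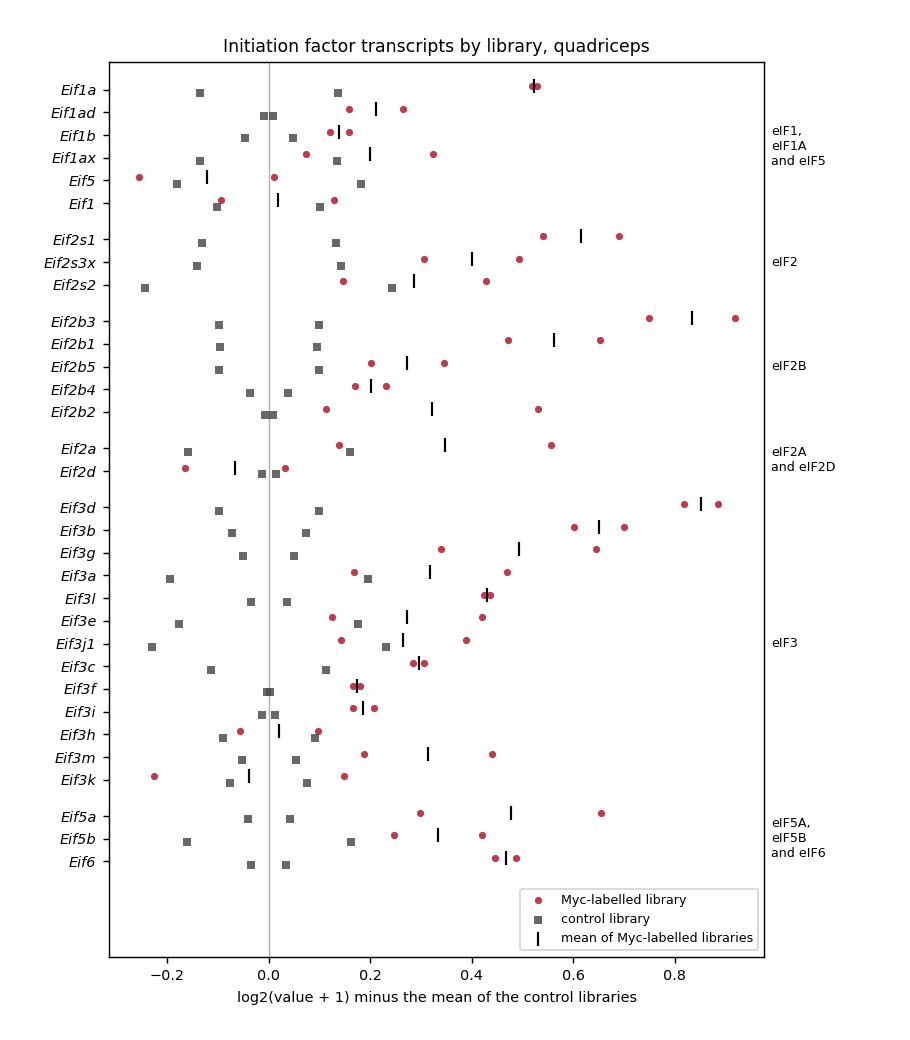
The x axis gives log2(value + 1) minus the mean of the control libraries in quadriceps, with genes in the same order as for soleus. Red circles are the 2 Myc-labelled libraries, grey squares the 2 control libraries and the black tick the Myc-labelled mean. Eif3d and Eif2b3 lie farthest to the right, with means of 0.85 and 0.83.

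The largest log2 changes in quadriceps were those of Eif3d, Eif2b3, Eif3b, Eif2s1 and Eif2b1, none of which passed in the fit of that muscle. Eif3d held 1439 and 1373 in the Myc-labelled libraries, against 833 and 727 in the controls, a log2 change of 0.85 (SE 0.16, limma adjusted p = 0.34). Eif2b3 held 379 and 338 against 215 and 187 in the controls (log2 change 0.83, SE 0.19, limma adjusted p = 0.39). Fitted together with the soleus libraries, so that the spread was shared over all 11, these were the 2 of the 32 genes called (limma adjusted p = 0.0068 for Eif3d and 0.040 for Eif2b3), where 0.643% of all genes were higher and 0.142% lower. Eif3b held 2702 and 2522 against 1748 and 1580 in the controls, Eif2s1 1085 and 978 against 737 and 613, and Eif2b1 997 and 878 against 677 and 593. In each of the 3 both Myc-labelled libraries exceed both controls. Eif3g held 869 and 703 against 536 and 575 in the controls, Eif3l 1096 and 1106 against 797 and 838, and Eif6 564 and 548 against 392 and 411. Of the 14 genes that did not pass in soleus, 8 lay above the controls without overlap in quadriceps, as did 18.3% of all genes tested. These 8 were Eif6, Eif1b, Eif2b2, Eif2b4, Eif3c, Eif3f, Eif3i and Eif3m. The share among all genes that did not pass in soleus is not given here. Eif2b2 held 657 and 491 against 457 and 452 in the controls, and Eif3m 1380.2 and 1159 against 1056 and 981. Eif1a held 317 and 319 against 201 and 243 in the controls (log2 change 0.52, SE 0.20), and Eif5a 8837 and 6894 against 5449 and 5775 (log2 change 0.48, SE 0.21). As in soleus, Eif1, Eif5, Eif2d, Eif3h and Eif3k had overlapping groups, with log2 changes between -0.12 and 0.02. Several genes were higher in replicate 1 than in replicate 2 of both groups. For Eif2s2 replicate 1 held 3561.5 in the Myc-labelled group and 3133 in the control group, and replicate 2 held 2929 in the Myc-labelled group and 2237 in the control group.

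**Figure D4:**
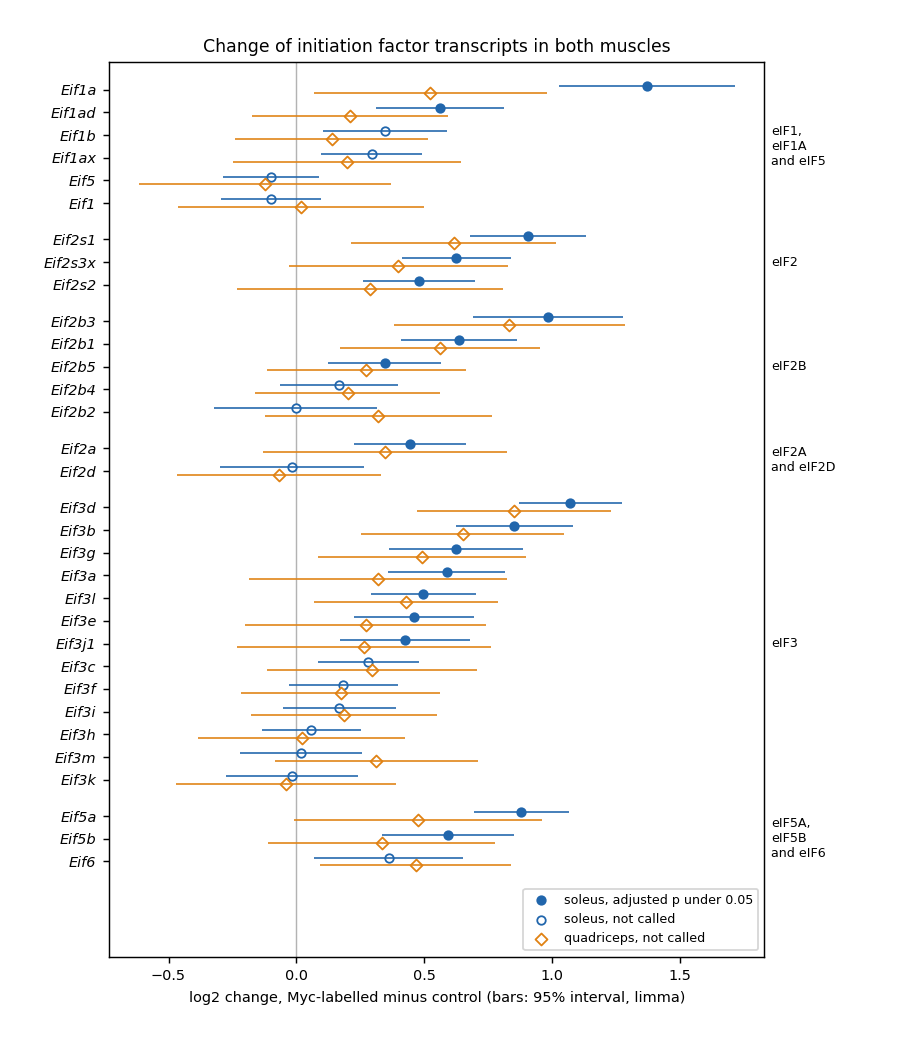
Log2 change, Myc-labelled minus control, with its 95% interval from limma, for each gene in soleus (blue circles) and quadriceps (orange diamonds); filled symbols passed an adjusted p of 0.05. The 18 filled symbols are all soleus genes to the right of 0, and the quadriceps intervals are wider, with a median SE of 0.18 against 0.11 in soleus.

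Whether the change differed between muscles was tested as the difference of the changes within each table, since the tables had been normalised separately. For 0 of the 32 genes did it pass (limma over 11 libraries, 2 at an unadjusted p under 0.05; by limma-voom 0, and 2 at an unadjusted p under 0.05), where 0% of all genes passed and 3.18% had an unadjusted p under 0.05. The 2 were Eif1a, with a soleus minus quadriceps log2 difference of 0.85 (SE 0.26, 95% interval 0.28 to 1.41, limma adjusted p = 0.999) and Eif5a, with 0.40 (SE 0.17, 95% interval 0.04 to 0.77). The Eif5a difference was 0.58 without Myc-labelled quadriceps replicate 1 and 0.22 without Myc-labelled quadriceps replicate 2, where the quadriceps change itself was 0.30 and 0.66. In 25 of the 32 the soleus change was the larger, as in 54.2% of all genes. The 95% intervals of the difference had a median width of 0.78 on the log2 scale and included 0 for 30 of the 32, so a missed threshold does not show that the muscles changed alike.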

How the data were processed

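RNA was sequenced from 11 muscle libraries. The values are a normalised signal per gene that the authors deposited as 1 table per muscle, each scaled on its own. The tools named, per the submitters' processing notes, are Partek, DESeq2 and STAR 2.7.8a, and the builds mm10 and mm39; their roles are not given in the sources used here. Low values are near whole multiples of 1 step per library (91.0% to 93.5% of values under 300 lie within 0.02 of a read), which gave the estimated depths. The steps did not give whole reads for nearly all genes, so no test that needs whole counts was run. The limma-voom alternative used the values divided by these steps as estimated reads, and carries that limit.

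Genes reaching a value of 10 in 3 or more libraries (soleus) or 2 or more (quadriceps) were tested with limma 3.58.1 (R 4.3.3, trend and robust moderation) on log2(value + 1), each muscle alone, with Benjamini-Hochberg adjustment over all genes tested; the fold of low genes is understated on this scale. The difference between muscles came from 1 fit over 11 libraries. The calculation was tested on simulated data. Libraries of the same group were further apart than sampling noise, and 0 columns were left unused. Per-length levels used the longest coding transcript in GENCODE M21, on which 50-base stretches shared with other genes were counted.

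The 32 genes, the other pathway lists and the marker lists were chosen with earlier results of these data known. Named with every soleus value are the members that passed in soleus and the highest and lowest of each factor group; Eif1ax was added, after its values were seen, as the X-linked gene of the factor that Eif1a codes for, and other members are given by ranges or means. Same-numbered Myc-labelled and control libraries did not deviate together in soleus (correlations 0.001, 0.076 and 0.138, not all over 0.1). In quadriceps the correlation was 0.144. With 2 libraries per group both same-numbered pairs must give the same value, so it counts once. Between soleus and quadriceps, same-numbered libraries correlated at -0.03 and 0.097 in the Myc-labelled groups and at 0.1 and 0.162 in the control groups. These values are too little to take the numbers as pairs, and the labels do not say that same-numbered libraries are pairs. The main fit of the muscle difference took all libraries as separate. Its replicate block took same-numbered libraries of the same condition as pairs across muscles. Alternatives covered scaling, filter, pseudocount, moderation, limma-voom, a replicate block, a joint fit and libraries left out. Precision is limited by the 2 to 4 libraries per group.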

Additional observations from a re-analysis of the deposited data

Results flagged for a closer look

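Eif2s2, the beta subunit of eIF2, held 2191, 2083, 2070.2 and 2082 in Myc-labelled soleus libraries 1 to 4, against 1472, 1329.9 and 1754 in the controls. Library 1 stood apart because the other 3 Myc-labelled values lie very close together: its gap to the nearest, divided by the range of the 4 on the log2 scale, was 0.895, above the critical value for 4 samples. The 32 sets of 4 Myc-labelled soleus values were examined, of which chance marks about 1 in 20.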

How the results depend on the processing

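Of 576 comparisons of a gene's soleus result with an alternative, 531 kept direction and side of the threshold, 28 lost the call, 4 gained one and 13 changed sign; in quadriceps 436 of 448 kept both, 2 gained a call and 10 changed sign, and all 40 of the muscle difference, for Eif1a and Eif5a, kept both. The soleus count of 18 was 11 without Myc-labelled libraries 3 and 4, where 4.94% of all genes passed in either direction. It was 13 to 18 with single libraries left out, where 6.09% to 7.96% of all genes passed. Under the other settings it was 16 to 21, where 8.36% to 11.6% of all genes passed. The 13 other pathway genes were 8 without libraries 3 and 4, and 8 to 11 at the extremes of single libraries left out. These came from the same fits, so the shares of all genes are those just given. The quadriceps count of 0 was 2 in the joint fit of 11 libraries, where 0.785% of all genes passed in either direction. With the replicate block the counts were 16 in soleus and 12 for other pathway genes, where 9.54% of all genes passed. In quadriceps the block gave 0, where 0.0326% of all genes passed. There 18 had an unadjusted limma p under 0.05, where 12.3% of all genes did, against 9 without the block, where 6.21% did. For the difference the count with the block was 0, where 0% of all genes passed. A library without a same-numbered partner adds nothing to a change estimated with the block. In soleus this holds for Myc-labelled library 4, and the median change was 0.37 both with the block and without that library. For the difference it holds for Myc-labelled soleus libraries 3 and 4 and control soleus library 3, which have no quadriceps partner. Signs turned for genes near 0. Under library-size scaling, which moved the median of all genes from -0.03 to 0.01 in soleus and from -0.03 to 0.03 in quadriceps, Eif2b2 was 0.043, Eif2d 0.028 and Eif3k 0.030 in soleus, and Eif3k 0.023 in quadriceps. Eif3m was -0.012 in soleus without libraries 3 and 4. With single libraries left out, soleus changes ran from -0.065 to 0.14 for Eif3m, -0.11 to 0.12 for Eif2b2, -0.048 to 0.042 for Eif2d and -0.11 to 0.067 for Eif3k, and quadriceps changes from -0.094 to 0.13 for Eif1, -0.30 to 0.059 for Eif5, -0.16 to 0.032 for Eif2d, -0.070 to 0.11 for Eif3h and -0.23 to 0.15 for Eif3k; the cause was not tested. Summing Eif3j1 and Eif3j2, chosen after seeing the data, left 18. Leaving out 1 quadriceps library leaves a lone sample, assumed to vary like the others. TMM scaling and a quasi-likelihood test on counts were not run, because whole reads could not be recovered.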
